A study of Homo sapiens with 6 samples.

Results

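The BCL2 family of genes, which sets the threshold for mitochondrial apoptosis, was followed in Mum-2b cells with the gene NELFCD knocked down. The family was taken as 10 genes matched by symbol in the deposited count table, of 58735 genes listed there. They are the anti-apoptotic genes BCL2, BCL2L1 and MCL1, the pore-forming effectors BAX and BAK1, and the BH3-only genes PMAIP1, BBC3, HRK, BMF and BCL2L11. The knockdown group held 3 RNA-seq libraries labelled shRNA1 with the genotype NELFCD knockdown, and the control group held 3 libraries labelled NC with a wild-type genotype. Both groups were the human uveal melanoma line Mum-2b, and the knockdown titles carry 1 hairpin number. The labels do not say whether replicates were separate cultures, so the spread behind the p-values may be technical. Without a replicate term it is the spread between the libraries of a group, and with such a term it is what the term leaves. RNA had been extracted with either of a pair of kits, and which library had which is not given. NELFCD belongs to the negative elongation factor complex, NELF, which keeps promoter-proximal RNA polymerase II paused.

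Proteins of the BCL2 family decide whether the outer membrane of the mitochondrion is opened. BAX and BAK1 form the pores through which cytochrome c escapes, BCL2, BCL-XL (from BCL2L1) and MCL1 restrain them, and BH3-only proteins insert a short helix, the BH3 domain, into a groove of the restraining proteins or activate the effectors directly. Transcripts of the BH3-only genes are made in answer to stress signals or to loss of growth factors, and MCL1 is known for the short life of its protein and its transcript.

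The sequence that all 10 members share is the core of the BH3 domain, shown here because the BH3-only genes carried the largest falls described below. Its coding sequence was read from 1 GENCODE release 29 transcript per gene. The search took a leucine codon, any 3 codons, a glycine or alanine codon and an aspartate codon. Each of the 10 coding sequences held 1 such match. The lines give 27 coding bases from the leucine codon, with the leucine, the glycine or alanine and the aspartate codons in capitals.
PMAIP1: CTCaggagatttGGAGACaaactgaac
BBC3: CTGcggcggatgGCGGACgacctcaac
HRK: CTCaaggcgctaGGCGACgagctgcac
BMF: CTTcagtgcattGCAGACcagttccac
BCL2L11: TTGcggcgtattGGAGACgagtttaac
BCL2: CTCcgccaggccGGCGACgacttctcc
BCL2L1: CTGagggaggcaGGCGACgagtttgaa
MCL1: TTAcgacgggttGGGGATggcgtgcag
BAX: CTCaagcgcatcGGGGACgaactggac
BAK1: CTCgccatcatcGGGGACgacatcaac
The codon before the aspartate codon encoded glycine in 8 genes and alanine in 2, BBC3 and BMF. Over the 45 pairs of genes, 11 to 19 of the 27 bases were identical (median 15). The match began at codon 29 of 54 in PMAIP1 and at codon 37 of 91 in HRK, the shortest coding sequences, and at codon 213 of 350 in MCL1, the longest. The PMAIP1 window lies on chromosome 18 at chr18:59902673-59902699 on the plus strand and the BBC3 window on chromosome 19 at chr19:47226582-47226608 on the minus strand (GRCh38).

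Libraries held 14600333 to 16656630 counts in the knockdown and 14306733 to 16106948 in the control. NELFCD itself had 20.7, 37.4 and 40.3 CPM (counts scaled by library size) in knockdown replicates 1 to 3, against 65.5, 88.3 and 83.5 CPM in control replicates 1 to 3. Replicate 1 of both groups stood apart from replicates 2 and 3, on a principal component that held 75.01% of the variance of log2 CPM. Of 8 melanocyte marker genes, MLANA, TYRP1 and MITF averaged at least 1 CPM, the summed level was 7.61 to 18.3 CPM in the knockdown and 7.503 to 10.8 CPM in the control, and TYR and S100B were at 0 in 5 of 6 libraries each. The epithelial keratins KRT8 and KRT18 brought the 4 epithelial markers to a summed 1058 to 1462 CPM in the knockdown and 686 to 1301 CPM in the control. The other epithelial markers were near 0, with at most 9 counts a library for EPCAM and 1 for CDH1. In the fit with the replicate block described below, KRT18 rose by 0.49 log2 (edgeR adjusted p = 0.0093). KRT8 did not pass there (0.21, edgeR adjusted p = 0.17), and it stood at 145% of control in replicate 1 and at 104% and 103% in replicates 2 and 3. The rise of KRT18 was larger in replicate 1 (171% of control) than in replicates 2 and 3 (130% and 126%, edgeR interaction, adjusted p = 7.9e-08). No mesenchymal or immune marker averaged 1 CPM, and of 4 endothelial markers PECAM1 and KDR did. Their part in the results on the family was not tested.

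Transcripts of the BH3-only genes PMAIP1, BBC3 and HRK, and of the survival gene MCL1, fell in the knockdown once the replicate number was in the model. As plain ratios of group mean CPM, which leave the replicate number out, PMAIP1 was left at 63.0% of control, BBC3 at 49.4%, HRK at 58.7% and MCL1 at 85.9%. With the replicate number as a block, the quasi-likelihood test of edgeR, with Benjamini-Hochberg adjusted p-values over 14844 genes, called 4 of the 9 tested members, all 4 lower, where it called 8.01% of all genes lower and 5.48% higher. No member rose past that test. The members were chosen with earlier results of these data known, so the shares stand side by side as a description. In bulk RNA, fewer cells carrying a transcript and less of it per cell cannot be told apart. BMF was the member left out by the filter on low counts. Without the block the same test called 0 of the 9 members and 0% of all genes, with 0 members at an unadjusted p under 0.05, and limma-voom and DESeq2 without a block also called 0 members. NELFCD itself did not pass without the block (log2 fold change -1.27, edgeR adjusted p = 0.53) and passed with it (-1.30, edgeR adjusted p = 0.00046). In none of the 10 members did the knockdown and control libraries stay clear of each other, where 14.9% of all tested genes had groups that did not overlap, 7.38% with the knockdown lower and 7.52% with it higher. Within pairs of equal replicate number, 5 of the 9 tested members were lower in all 3 pairs, where 26.9% of all tested genes were, and 3 were higher in all 3 pairs, where 25.9% were; 52.7% of all tested genes kept 1 direction. In replicates 2 and 3 alone 5 members were called lower and 1 higher, where edgeR called 25.3% of all genes, 13.7% lower and 11.7% higher. The median log2 fold change of the 9 members was -0.16 in the blocked fit, where the median of all tested genes was 0.0001.

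**Figure D1:**
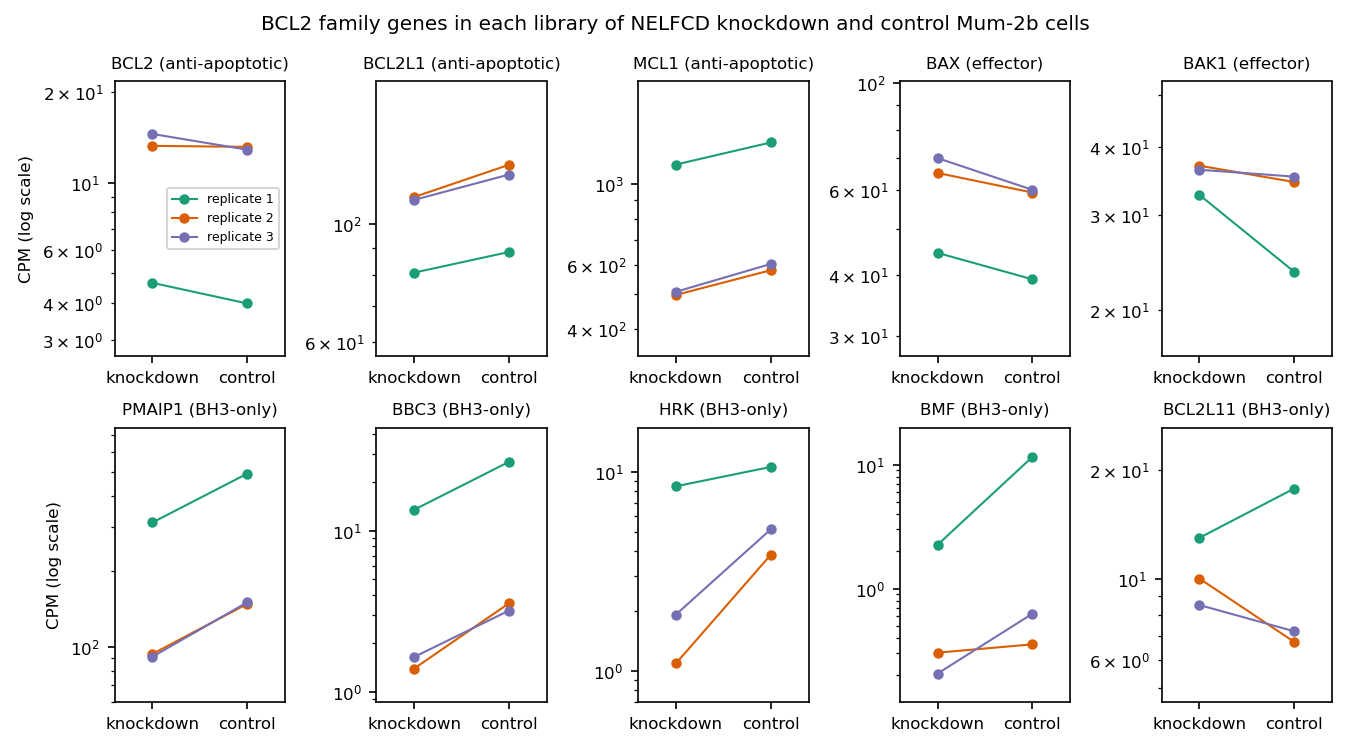
CPM of each of the 10 members in each library, on log axes of their own, with the knockdown left and the control right; lines join libraries of equal replicate number. PMAIP1 and BBC3 had lower levels in the knockdown in each pair, and replicate 1 lies apart from replicates 2 and 3 in most panels.

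PMAIP1 (ENSG00000141682, chromosome 18, 59899948 to 59904306, hg38), which encodes NOXA, a BH3-only protein that binds MCL1, was lower by a similar share in each pair. It stood at 314, 93.5 and 91.1 CPM in knockdown replicates 1 to 3, against 492, 148 and 150.4 CPM in control replicates 1 to 3. Each knockdown library lay below the control library of its number, but knockdown replicate 1 lay above control replicates 2 and 3. By pair, 63.8%, 63.1% and 60.6% of the control level remained. The log2 fold change was -0.68 ± 0.058 (SE) with the block (edgeR adjusted p = 0.00049) and -0.67 ± 0.70 (SE) without it (edgeR adjusted p = 0.9999). PMAIP1 was lower and passed in 13 of 13 fits that kept the replicate number or replicate 1 in the model or used replicates 2 and 3 alone, and in 0 of 15 fits without it. The interaction of knockdown with replicate 1 was 0.045 ± 0.070 (SE, log2) with an edgeR adjusted p of 0.76.

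BBC3 (ENSG00000105327, chromosome 19, 47220822 to 47232766), which encodes PUMA, a BH3-only protein that binds all the anti-apoptotic members, was left at about the same share in each pair. It stood at 13.5, 1.39 and 1.64 CPM in knockdown replicates 1 to 3, against 26.7, 3.54 and 3.19 CPM in control replicates 1 to 3. Replicate 1 of both groups held most of the transcript, and within a replicate number the knockdown was lower, at 50.5%, 39.4% and 51.6% of control. In replicates 2 and 3 these levels rested on 23 and 24 counts in the knockdown and 50 and 51 counts in the control. The 95% Poisson intervals of counting error were 0.883 to 2.09 and 1.05 to 2.45 CPM in knockdown replicates 2 and 3, and 2.63 to 4.67 and 2.37 to 4.19 CPM in control replicates 2 and 3. The log2 fold change was -1.06 ± 0.16 (SE) with the block (edgeR adjusted p = 0.0060) and -1.02 ± 1.21 (SE) without it (edgeR adjusted p = 0.9999), and BBC3 passed in 12 of the 13 fits. On log2(FPKM + 1) with the block, limma gave an adjusted p of 0.053. MIR3190 and MIR3191 share 2.52% of its exon bases, and both had 0 counts in every library.

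HRK (ENSG00000135116, chromosome 12, 116856144 to 116881441) encodes harakiri, a BH3-only protein that binds BCL2 and BCL-XL and is known from neurons deprived of growth factor. It stood at 8.44, 1.09 and 1.92 CPM in knockdown replicates 1 to 3, against 10.6, 3.82 and 5.13 CPM in control replicates 1 to 3. Knockdown replicates 2 and 3 were the lowest of the 6 libraries, and replicate 1 of both groups the highest. By pair, 80.0%, 28.5% and 37.4% of the control level remained. The log2 fold change was -0.99 ± 0.28 (SE) with the block (edgeR adjusted p = 0.0497) and -0.77 ± 0.81 (SE) without it (edgeR adjusted p = 0.9999). In replicates 2 and 3 alone it was -1.59 (edgeR adjusted p = 3.3e-05). The blocked call was lost without pair 2 (log2 fold change -0.75, edgeR adjusted p = 0.14), with upper-quartile scaling (adjusted p = 0.059), at a mean of at least 5 CPM (0.068), in limma-voom (0.083) and on log2(FPKM + 1) (0.073). The knockdown difference of HRK was smaller in pair 1 than in pairs 2 and 3 by 1.27 ± 0.39 (SE, log2; edgeR interaction, adjusted p = 0.018).

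The 250 bases before the RefSeq start (GRCh38.p14) of these 3 genes are printed because they are the BH3-only genes called lower in the blocked fit, with matches in capitals. The motifs searched on both strands were the GC box GGGCGG, the TATA box TATAAA, the cyclic AMP response core TGACGT and the amino acid response element TGATGNAA, and no matches overlapped. The windows are chr18:59899746-59899995 on the plus strand for PMAIP1, chr19:47232668-47232917 on the minus strand for BBC3 and chr12:116881442-116881691 on the minus strand for HRK.
PMAIP1: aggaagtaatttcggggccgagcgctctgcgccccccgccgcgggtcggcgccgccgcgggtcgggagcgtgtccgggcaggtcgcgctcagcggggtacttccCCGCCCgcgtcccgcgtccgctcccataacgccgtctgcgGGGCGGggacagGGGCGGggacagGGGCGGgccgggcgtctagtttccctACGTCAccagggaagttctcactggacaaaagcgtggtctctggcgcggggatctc
BBC3: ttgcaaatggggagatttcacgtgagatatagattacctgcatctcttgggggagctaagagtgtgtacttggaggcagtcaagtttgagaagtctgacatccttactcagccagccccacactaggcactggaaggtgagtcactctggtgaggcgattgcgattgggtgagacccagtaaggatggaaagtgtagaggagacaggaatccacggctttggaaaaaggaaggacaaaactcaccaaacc
HRK: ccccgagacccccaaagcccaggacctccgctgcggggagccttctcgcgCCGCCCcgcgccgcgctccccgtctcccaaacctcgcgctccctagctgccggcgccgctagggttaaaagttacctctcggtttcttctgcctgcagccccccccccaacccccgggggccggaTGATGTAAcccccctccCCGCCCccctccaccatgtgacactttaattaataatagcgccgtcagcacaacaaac
PMAIP1 held 4 GC boxes, which start 146, 106, 94 and 82 bases before the start site, and 1 cyclic AMP response core 56 bases before it. HRK held 2 GC boxes, 200 and 58 bases before the start, and 1 amino acid response element 75 bases before it. BBC3 held none of the 4 motifs in this window. Among the other members, BCL2L11 held 3 GC boxes, BAK1 2, BAX 1 and BMF 1 in 1 window and 0 in another, and BCL2 and BCL2L1 held 0. The part of these motifs in the knockdown differences was not tested. Of 27305 RefSeq promoters of the same length, 42.3% held the GC box, 11.1% the TATA box, 7.42% the cyclic AMP response core and 3.19% the amino acid response element. GC content was 72.8% for PMAIP1, 66.4% for HRK and 49.2% for BBC3, where the median of all promoters was 58.0%. Of the 10 members, 9 had an entry in the promoter table, MCL1 not among them.

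MCL1 (ENSG00000143384, chromosome 1, 150574551 to 150579738), the anti-apoptotic partner of NOXA, was lower by a small and even amount. It stood at 1129, 496 and 506 CPM in knockdown replicates 1 to 3, against 1297, 580 and 603 CPM in control replicates 1 to 3. The difference between replicate 1 and the other replicates was larger than that between the groups, and each knockdown library was at 83.9% to 87.0% of the control library of its number. The log2 fold change was -0.23 ± 0.054 (SE) with the block (edgeR adjusted p = 0.027) and -0.22 ± 0.47 (SE) without it (edgeR adjusted p = 0.9999). MCL1 was lower in 13 of the 13 fits with the replicate number or in replicates 2 and 3 alone and passed in 9 of them. It did not pass with the block without pair 2 (adjusted p = 0.24), without pair 3 (0.28), with upper-quartile scaling (0.064) or on log2(FPKM + 1) (0.055).

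**Figure D2:**
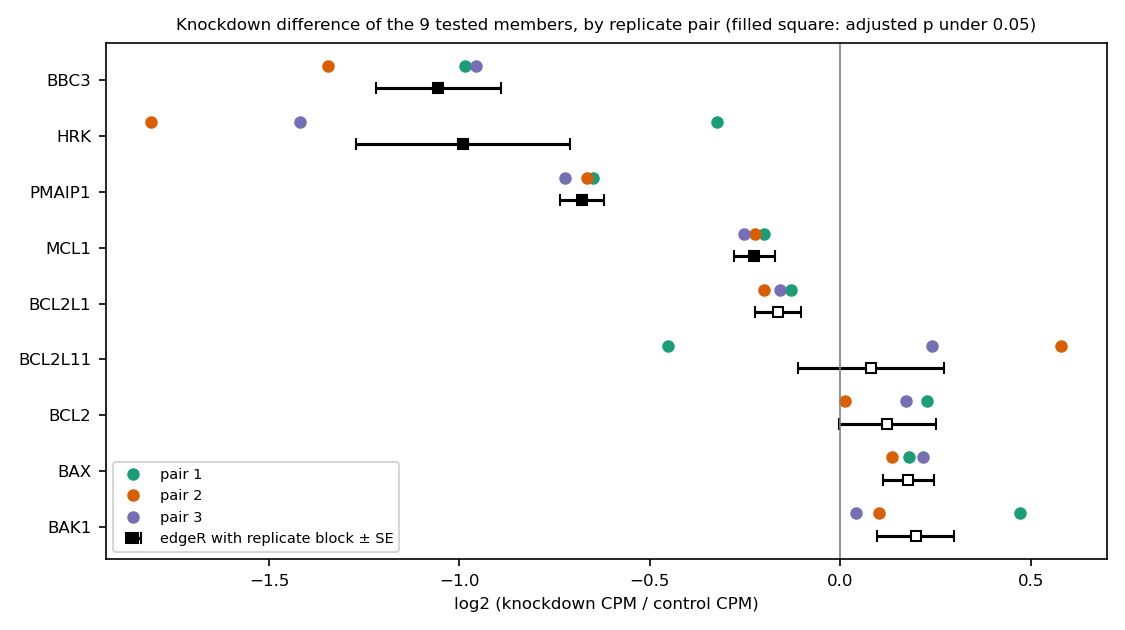
log2 ratio of knockdown to control CPM for the 9 tested members, as coloured points for each replicate pair and as black squares for edgeR's fit with the replicate block, with bars of ± 1 SE; filled squares had an adjusted p under 0.05. PMAIP1 and MCL1 have nearly the same ratio in the 3 pairs, HRK is lower in pairs 2 and 3 than in pair 1, and BCL2L11 lies on opposite sides of 0.

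The other anti-apoptotic genes did not pass in the blocked fit of all 6 libraries. BCL2L1 (ENSG00000171552, chromosome 20, 31664452 to 31723989), whose longer isoform is BCL-XL, stood at 80.95, 112 and 111 CPM in knockdown replicates 1 to 3, against 88.5, 129 and 124 CPM in control replicates 1 to 3. It was lower in each pair, at 91.5%, 87.0% and 89.6% of control. Its log2 fold change was -0.16 ± 0.061 (SE) with the block (edgeR adjusted p = 0.11), and -0.18 in replicates 2 and 3 alone (edgeR adjusted p = 0.0037). The antisense gene ABALON shares 43.0% of the BCL2L1 exon bases, and because the use of strand in counting was not given, reads of the pair cannot be told apart there. ABALON itself was given 18, 22 and 32 counts in knockdown replicates 1 to 3 and 11, 29 and 32 counts in control replicates 1 to 3. BCL2 (ENSG00000171791, chromosome 18, 63123346 to 63320128), the founding member of the family, stood at 4.65, 13.3 and 14.5 CPM in knockdown replicates 1 to 3, against 3.98, 13.2 and 12.9 CPM in control replicates 1 to 3. It was higher in each pair, at 117%, 101% and 113% of control, by less than the spread between replicates, with a log2 fold change of 0.12 ± 0.13 (SE) with the block (edgeR adjusted p = 0.56).

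The effectors BAX and BAK1 were a little higher in each pair without passing the test. BAX (ENSG00000087088, chromosome 19, 48954815 to 48961798), which moves from the cytosol to mitochondria, stood at 44.5, 65.2 and 69.97 CPM in knockdown replicates 1 to 3, against 39.3, 59.4 and 60.2 CPM in control replicates 1 to 3. By pair it was at 113%, 110% and 116% of control, and its log2 fold change was 0.18 ± 0.067 (SE) with the block (edgeR adjusted p = 0.11). In replicates 2 and 3 alone it was 0.17 (edgeR adjusted p = 0.035). BAK1 (ENSG00000030110, chromosome 6, 33572547 to 33580293), which resides on the mitochondrial membrane, stood at 32.6, 37.0 and 36.3 CPM in knockdown replicates 1 to 3, against 23.5, 34.5 and 35.3 CPM in control replicates 1 to 3. Control replicate 1 was the lowest library, and the ratio was 139% in pair 1 but 107% and 103% in pairs 2 and 3. The log2 fold change was 0.20 ± 0.10 (SE) with the block (edgeR adjusted p = 0.22), and the interaction with replicate 1 did not pass (0.40 ± 0.15 SE, edgeR adjusted p = 0.069).

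BCL2L11 and BMF, the remaining BH3-only genes, did not follow PMAIP1 and BBC3 in a single way. BCL2L11 (ENSG00000153094, chromosome 2, 111119378 to 111168447) encodes BIM, which binds every anti-apoptotic member and can activate BAX and BAK1. It stood at 13.0, 10.1 and 8.498 CPM in knockdown replicates 1 to 3, against 17.8, 6.72 and 7.19 CPM in control replicates 1 to 3. It was lower in pair 1, at 73.1% of control, and higher in pairs 2 and 3, at 149.6% and 118%. The log2 fold change with the block was 0.080 ± 0.19 (SE, edgeR adjusted p = 0.82), and the difference between pair 1 and pairs 2 and 3 was -0.87 ± 0.25 (SE, edgeR interaction, adjusted p = 0.0087). With the block and without pair 1, BCL2L11 passed as higher by 0.41 (edgeR adjusted p = 0.046), while in replicates 2 and 3 alone with no block it did not (0.42, edgeR adjusted p = 0.057). The non-coding gene MIR4435-2HG on the opposite strand shares 10.9% of its exon bases, and it had 773, 1108 and 898 counts in knockdown replicates 1 to 3, against 485, 881 and 963 counts in control replicates 1 to 3. Its part in the BCL2L11 values was not tested.

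BMF (ENSG00000104081, chromosome 15, 40087890 to 40108892), a BH3-only protein held at the myosin V motor through the light chain DYNLL2, was close to the detection limit outside replicate 1. It had 34, 5 and 3 counts in knockdown replicates 1 to 3, against 169, 5 and 10 counts in control replicates 1 to 3. Only replicate 1 held enough counts to compare, and there the knockdown was at 19.5% of control, at 2.26 CPM against 11.6 CPM. The 95% Poisson intervals of counting error overlapped in pairs 2 and 3. With no filter on low counts and the block, BMF passed as lower (log2 fold change -1.97, edgeR adjusted p = 1.2e-05), where control replicate 1 holds most of the counts. It was -2.24 without pair 2 and -2.01 without pair 3, and without pair 1 BMF was not tested.

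Every one of the 9 tested members differed more between replicate 1 and the other replicates than between the groups in the blocked fit. When replicate 1 was set against replicates 2 and 3 beside the group term in edgeR, 9 of 9 tested members differed between replicate 1 and replicates 2 and 3, where 61.8% of all genes did. MCL1 and the 4 tested BH3-only genes were higher in replicate 1, and BCL2, BCL2L1, BAX and BAK1 were lower, where 31.6% of all genes were higher and 30.2% lower. The log2 difference of replicate 1 was 3.05 ± 0.15 (SE) for BBC3, 1.78 ± 0.28 for HRK, 1.74 ± 0.051 for PMAIP1, 1.15 ± 0.047 for MCL1 and 0.93 ± 0.18 for BCL2L11. It was -1.64 ± 0.15 for BCL2, -0.60 ± 0.069 for BAX, -0.49 ± 0.060 for BCL2L1 and -0.36 ± 0.098 for BAK1. The largest adjusted p among these 9 was 0.0065, for BAK1. The exact two-sided permutation p of 3 against 3 libraries, which cannot go below 0.1, ran from 0.3 for HRK to 0.8 for BCL2L11.

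Per gene length the order of levels was led by MCL1 and PMAIP1. In the deposited FPKM (fragments scaled by gene length and library size), MCL1 averaged 159 ± 77.2 in the knockdown and 188 ± 89.6 in the control (SD, n = 3 each), and PMAIP1 72.4 ± 54.1 in the knockdown and 117 ± 86.0 in the control. BCL2L1 followed with 30.2 ± 5.83 FPKM in the knockdown and 34.3 ± 7.04 in the control, BAX with 22.9 ± 5.56 in the knockdown and 20.4 ± 4.81 in the control, and BAK1 with 15.7 ± 1.37 in the knockdown and 14.04 ± 3.13 in the control. MCL1 was above PMAIP1, PMAIP1 above BCL2L1, BCL2L1 above BAX and BAX above BAK1 in 6 of 6 libraries, although over the libraries the ranges of MCL1 and PMAIP1, of BCL2L1 and BAX and of BAX and BAK1 overlapped. BBC3, BCL2L11, BCL2, HRK and BMF had means over the 6 libraries of 0.460 to 2.57 FPKM. Among these 5 genes, neighbours in the order overlapped and changed places between libraries. BBC3 was above BCL2L11 in 3 of 6 libraries, BCL2L11 above BCL2 in 4, BCL2 above HRK in 4 and HRK above BMF in 5. The level of BCL2 was 0.911 ± 0.463 FPKM in the knockdown and 0.852 ± 0.451 FPKM in the control.

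**Figure D3:**
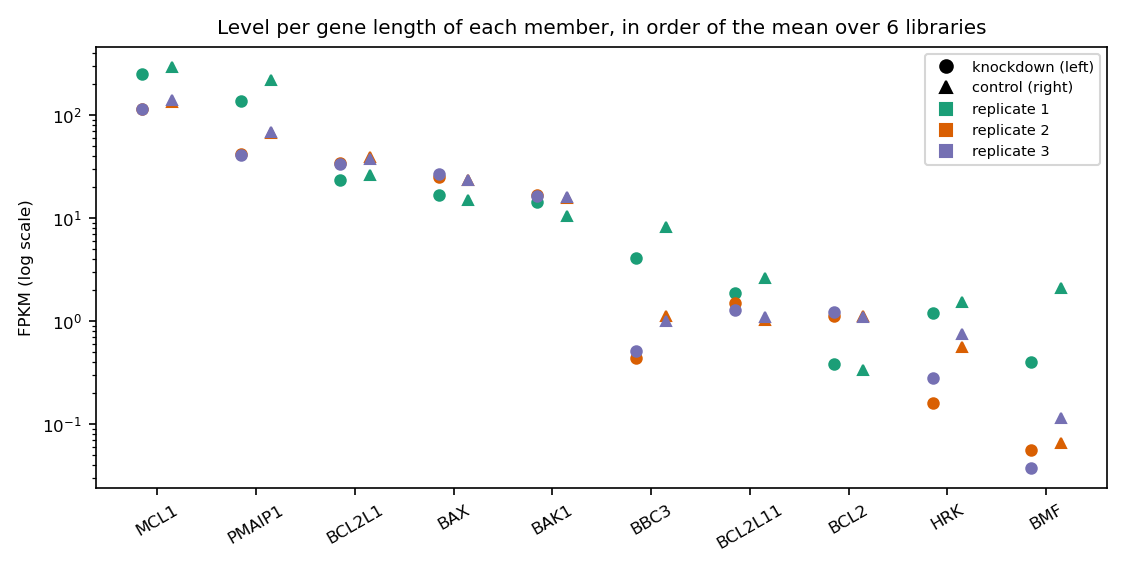
Deposited FPKM of each member on a log axis, in order of the mean over 6 libraries, with knockdown libraries as circles on the left and control libraries as triangles on the right, coloured by replicate number. MCL1 and PMAIP1 lie highest, and the last 5 genes have means of 0.460 to 2.57 FPKM and overlap.

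Sums over the roles of the 10 members were taken in each library, as a description with no test. They leave out expressed relatives outside the 10. BID, BIK and BAD averaged 8.74, 9.04 and 7.36 FPKM in the knockdown, against 9.99, 8.99 and 7.96 FPKM in the control. BCL2L2 and BCL2A1 averaged 13.5 and 5.97 FPKM in the knockdown, against 12.4 and 6.18 FPKM in the control. BOK, a relative of the effectors that their sum leaves out, averaged 19.9 FPKM in the knockdown and 18.8 FPKM in the control. The 5 BH3-only genes summed to 142, 43.9 and 42.7 FPKM in knockdown replicates 1 to 3, against 231, 69.5 and 70.5 FPKM in control replicates 1 to 3, and PMAIP1 made up 0.937 to 0.960 of the sum in the 6 libraries. The 3 anti-apoptotic members summed to 272, 148 and 149.8 FPKM in knockdown replicates 1 to 3, against 318, 174 and 177 FPKM in control replicates 1 to 3. Of these sums MCL1 alone gave 248, 113 and 115 FPKM in knockdown replicates 1 to 3, and 291, 133 and 139 FPKM in control replicates 1 to 3. The ratio of BH3-only to anti-apoptotic transcripts was 0.524, 0.296 and 0.285 in the knockdown libraries and 0.726, 0.400 and 0.398 in the control libraries, which is 0.722, 0.741 and 0.715 times the control by pair. PMAIP1 over MCL1 was 0.544, 0.368 and 0.352 in the knockdown libraries and 0.742, 0.500 and 0.488 in the control libraries. The effectors over the anti-apoptotic genes went the other way, at 0.113, 0.282 and 0.289 in the knockdown libraries and 0.0797, 0.223 and 0.222 in the control libraries. BAX over BCL2 was 43.5, 22.3 and 21.9 in the knockdown libraries and 44.9, 20.5 and 21.2 in the control libraries, with pair ratios on both sides of 1. The first 3 of these ratios were each shifted in the same direction in all 3 pairs, and the groups overlapped in each, with replicate 1 apart from the others.

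**Figure D4:**
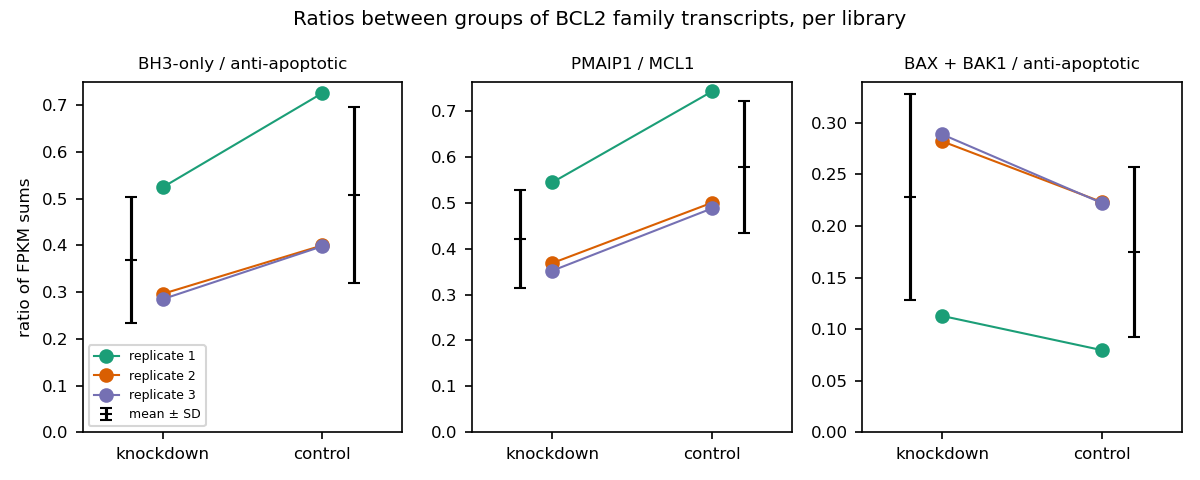
Ratios of summed FPKM in each library, with the knockdown left and the control right; coloured lines join equal replicate numbers and black bars are the mean ± SD of 3 libraries. BH3-only over anti-apoptotic transcripts and PMAIP1 over MCL1 were lower in the knockdown in each pair, and BAX plus BAK1 over anti-apoptotic transcripts was higher in each pair.

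Genes that act before and after the family moved in both directions. Among 15 tested regulators of BH3-only genes or their proteins, 5 fell and 1 rose in edgeR's blocked fit, with a list median of -0.21 log2. That fit called 8.01% of all genes lower and 5.48% higher. The AP-1 subunit JUN fell by 0.53 (adjusted p = 0.0011), the S-phase factor E2F1 by 0.50 (0.020), the light chain DYNLL2, which holds BMF at the myosin V motor, by 0.50 (0.0081) and FOXO3, a forkhead factor known to act on BCL2L11 and BBC3, by 0.44 (0.011). The pseudokinase gene TRIB3 fell by 0.30 (0.026) and MYC rose by 0.37 (0.0091), both named after their values were seen. ATF4, the stress factor known to act on PMAIP1, was at -0.15 (0.17) and the light chain DYNLL1 at 0.0056 (0.97), and neither passed. ATF4 stood at 80.4% of control in pair 1 and at 95.4% and 95.6% in pairs 2 and 3 (edgeR interaction, adjusted p = 0.00056). The differences of E2F1, DYNLL2 and MYC were also larger in pair 1 (edgeR interaction, adjusted p = 0.026, 0.0089 and 0.014). The interaction did not pass for JUN, FOXO3, TRIB3 or DYNLL1. Among 9 tested genes listed for MCL1 turnover, HUWE1, the ubiquitin ligase MULE, fell by 0.22 (0.037), and DESI1, a SUMO protease whose place in MCL1 turnover is uncertain, rose by 0.26 (0.040). CDC20 was at -0.032 (0.75) and the deubiquitinase USP9X at -0.057 (0.54), and neither passed.

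Other genes of the death machinery were called in both directions. Among 11 other tested relatives of the family, the mitophagy receptor BNIP3 fell by 0.30 (edgeR blocked fit, adjusted p = 0.022) and MOAP1, a BAX-binding protein, rose by 0.32 (0.048), while BCL2L13 (0.094, adjusted p = 0.39) and BNIP3L (-0.26, adjusted p = 0.053) did not pass. Among 21 genes of the apoptosome, caspases and their inhibitors, 3 rose and 1 fell. Cytochrome c, CYCS, rose by 0.29 (0.023), the flavoprotein AIFM1 by 0.28 (0.038) and DFFA, the inhibitor of the caspase-activated nuclease, by 0.34 (0.028), and CASP2 fell by 0.34 (0.026). The outer membrane channels VDAC1 (0.19, adjusted p = 0.073) and VDAC2 (0.14, adjusted p = 0.14) did not pass. Of 11 tested genes of the death receptor arm, the TRAIL receptor TNFRSF10A rose by 0.29 (0.036) and CFLAR, the caspase-8 inhibitor FLIP, by 0.29 (0.038), and TNFRSF1A (0.050, adjusted p = 0.59) and TNFRSF10B (-0.085, adjusted p = 0.51) did not pass. Without the block 0 genes of these 5 lists passed in edgeR, and each list's share of calls stands beside 13.5% of all genes called in the blocked fit. The list medians were -0.087 for the relatives, -0.068 for MCL1 turnover, -0.0071 for the apoptosome list and 0.050 for the death receptor arm.

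Patterns across the 6 libraries were compared by Pearson's r of log2(CPM + 1) over 10116 protein-coding genes of at least 5 CPM, as a description in which replicate 1 sets most of the variation. PMAIP1 was most like the cytokine gene CSF1 (r = 0.9995) and the stress factor gene ATF3 (r = 0.999). BBC3 was most like UHRF1BP1 (r = 0.999) and the enolase gene ENO2 (r = 0.998), and HRK most like LRIG3 (r = 0.990) and SH3D19 (r = 0.990). CSF1 stood at 30.6, 7.997 and 7.88 CPM in knockdown replicates 1 to 3, against 52.1, 14.1 and 14.5 CPM in control replicates 1 to 3. From highest to lowest, the 6 libraries had the same order for CSF1 as for PMAIP1. Within the family, r was 0.996 between PMAIP1 and BBC3 and -0.992 between PMAIP1 and BAX over the same 6 libraries.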

How the data were processed

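RNA-seq was measured in 3 knockdown and 3 control libraries of Mum-2b. The deposited table holds raw counts per gene and a second deposited table holds FPKM, per the file headers; the submitters' processing notes name hg38, and the aligner, counter and use of strand are not given in the sources used here. Each FPKM equalled the count over gene length and 1 constant per library, and gene coordinates and lengths of the members matched GENCODE release 29.

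Counts were filtered by filterByExpr (14844 genes), scaled by TMM (factors 0.989 to 1.03) and tested with edgeR 4.0.16 in R 4.3.3 (glmQLFit, robust), with limma 3.58.1 and DESeq2 1.42.0 as alternatives. The threshold was an adjusted p of 0.05 (Benjamini-Hochberg, all genes). SE is the fold change over the root of F. The planned fit had no replicate term. Deviations from the group means correlated between libraries of equal number (r = 0.878, 0.741 and 0.732 across genes). The numbers were taken to pair the libraries, on these data rather than on any label. Replicate 1 stood apart in both groups, which by itself makes replicates 2 and 3 deviate alike, and unequal numbers were not compared. The correlations therefore cannot show that replicate 2 pairs with 2 or 3 with 3. A term for replicate 1 alone, which does not need that pairing, called 3117 of 14844 genes and 4 of 9 members, all 4 lower. The blocked fit (2 residual degrees of freedom, against 4) stands beside the planned fit. The biological coefficient of variation was 8.17% with the block and 32.6% without it. The interaction test takes its spread from replicates 2 and 3. CPM intervals hold counting error alone, because PCR copies without identifiers are counted as separate molecules. The fits were tested on simulated data.

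All 10 members are named, with NELFCD. Of each of 5 context lists, up to 4 genes past the blocked threshold with the largest change and up to 2 others of highest expression are named, and for the 3 members of at least 5 CPM with the largest blocked change the most alike genes by r. Members, lists and rule were chosen with earlier results of these data known.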

Additional observations from a re-analysis of the deposited data

Results flagged for a closer look

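HRK and BCL2L11 were the members whose knockdown difference in replicate pair 1 was unlike that in pairs 2 and 3. The difference between pair 1 and pairs 2 and 3 was 1.27 log2 for HRK (edgeR interaction test, adjusted p = 0.018), which stood at 80.0% of control in pair 1 and at 28.5% and 37.4% in pairs 2 and 3. It was -0.87 log2 for BCL2L11 (edgeR interaction test, adjusted p = 0.0087), which stood at 73.1% of control in pair 1 and at 149.6% and 118% in pairs 2 and 3. Of all genes tested 13% passed the same test, and 2 of 9 members did. Replicate 1 is 1 library a group, so the spread behind these p-values comes from replicates 2 and 3. NELFCD itself was left at 31.5% of control in pair 1 and at 42.4% and 48.2% in pairs 2 and 3, a difference of -0.52 log2. The part of this unequal knockdown in the member differences was not tested.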

How the results depend on the processing

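Without the replicate block edgeR called 0 genes and 0 members, and this held with RLE or upper-quartile factors, with no filter, at a mean of at least 5 CPM, in limma-voom and on log2(FPKM + 1) or log2(FPKM + 0.1); DESeq2 without a block called 161 genes and 0 members. With the replicate block 2002 of 14844 genes and 4 of 9 members were called. With replicate 1 as a batch term it was 3117 and 4 of the same sets. In replicates 2 and 3 alone it was 3758 of 14836 genes and 6 of 9 members. Of 14844 genes and 9 members, other blocked fits called 2040 and 4 (RLE factors), 2184 and 2 (upper-quartile factors), 2110 and 3 (limma-voom) and 575 and 1 (log2(FPKM + 1)). With no filter the block called 2888 of 32102 genes and 5 of 10 members. It called 1798 of 10722 genes and 3 of 9 members at a mean of at least 5 CPM. In DESeq2 it called 1358 of 13405 genes and 4 of 9 members. Counts from sets of unlike size are not on the same scale. With upper-quartile factors the block gave 1198 rises and 986 falls, against 813 and 1189 with TMM. Leaving out 1 library or 1 pair gave 0 to 4090 genes and 0 to 7 members. With the block, 4090 of 14836 genes and 7 of 9 members were called without pair 1. It was 932 of 15296 genes and 3 of 10 members without pair 2, and 1760 of 15221 and 4 of 10 without pair 3. The replicate 1 and interaction counts of members, under the 3 alternatives added after the data were seen (RLE factors, no filter, limma-voom), ran from 9 to 10 and stayed at 2.

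The sign of BCL2L11, at -0.0065 without the block, turned to 0.080 with the replicate block, 0.078 with the batch term, 0.42 in replicates 2 and 3 alone, 0.039 with upper-quartile factors, 0.0042 at a mean of at least 5 CPM, 0.13 in limma-voom, 0.035 and 0.092 on log2(FPKM + 1) and log2(FPKM + 0.1). With the replicate block it was 0.070 with RLE factors, 0.13 with upper-quartile factors, 0.063 with no filter, 0.096 at a mean of at least 5 CPM, 0.096 in DESeq2, 0.014 in limma-voom and 0.035 on log2(FPKM + 1), and 0.41 without pair 1 and 0.011 without pair 3. Leaving out 1 library or pair gave ranges that crossed 0 for BCL2L11 (-0.25 to 0.59), BCL2 (-0.27 to 0.47), MCL1 (-0.73 to 0.26), BBC3 (-2.88 to 0.71) and PMAIP1 (-1.52 to 0.15); the positive ends of the last 3 came without control replicate 1 and no block, which leaves replicate 1 in the knockdown alone. With the block, PMAIP1 and BBC3 kept their calls without any 1 pair. Counts of 3 to 82 for BMF, BBC3 and HRK in replicates 2 and 3 limit their precision.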
